A study of Mus musculus with 63 samples.

Results

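Ndrg1, N-myc downstream regulated gene 1, was followed across cultured mouse keratinocytes in which the epidermal growth factor receptor (EGFR) was present, inhibited or lost. The gene (gene ID 17988) lies on chromosome 15, at 66929318 to 66969641 of the mouse assembly GRCm38.p6, and is protein coding. Its members are the 2 probes that the platform annotation pairs with the symbol Ndrg1, of 28049 probes for 14541 named genes in all. The gene was picked from these same arrays for its levels under EGFR inhibition and in EGFR knockout cells, so those levels and differences are given as a description, with errors and without a test.

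Ndrg1 encodes a cytoplasmic protein with the fold of alpha/beta hydrolases. It is known as a stress gene: hypoxia raises its transcript, MYC and MYCN repress it, p53 has been reported to induce it, and the kinase SGK1 phosphorylates its protein. In epithelia it has been tied to growth arrest and differentiation, it is abundant in Schwann cells, and its loss causes a demyelinating neuropathy. EGFR is a receptor tyrosine kinase that signals through RAS and ERK and holds basal keratinocytes in a proliferating state.

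The cells were keratinocytes from the skin of newborn CD-1 mice, either wild type (WT) or knockout (KO) for EGFR. Groups called ras were transduced with the v-rasHa oncogene through supernatant of Psi-2 producer cells and cultured for 4 days. For groups called mock the labels give no treatment. Inhibitor groups received AG1478, erlotinib (Tarceva) or PD153035, each at 1 µM for 2 h. These 3 compounds are anilinoquinazolines that occupy the ATP pocket of the EGFR kinase. The 13 groups were WT mock, WT mock with each inhibitor, WT ras, WT ras with each inhibitor, KO mock, KO ras and KO ras with each inhibitor, so no KO mock group received an inhibitor. They hold 62 samples from 63 arrays, with 5 samples in each group except KO mock (3), WT mock (4), KO ras given erlotinib (4) and KO ras given AG1478 (6). Each value is a log ratio, taken as log2, of the sample over universal mouse reference RNA, a pool of cell line RNAs, hybridised to the same array. A value of 0 means as much signal as the pool, and values can be compared between samples of 1 probe but not between genes.

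Several facts about the arrays touch the values that follow. The direction of 2 of the 6 arrays of KO ras with AG1478, replicates 3 and 4, goes against their labels (correlations of −0.83 and 0.805 with the forward arrays as deposited), and results that rest on them are given both ways. Experiment numbers in the labels fall into 8 blocks, called runs here, whose meaning is not stated. WT ras lies in runs 1 and 2 and WT ras with an inhibitor in runs 5 to 8, so inhibitor and run cannot be told apart in that comparison. KO mock replicate 2 stands apart, with the lowest SD of all 63 arrays (0.753). Keratinocyte markers lay above markers of other skin cells by 2.94 to 6.03 on all 63 arrays, whereas 2 Egfr probes did not settle the genotype. The group means of the first were 1.87 to 2.62 in WT and 1.30 to 2.41 in KO cells. The second was lower in KO than in WT cells in mock (0.70 and 1.86), ras (0.60 and 1.23), ras with AG1478 (0.25 and 0.88) and ras with PD153035 (0.61 and 1.49), and higher in ras with erlotinib (0.77 and 0.14). Whether either probe lies in the deleted part is not known.

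Ndrg1 stood near or above the reference pool in WT ras cells that had received an EGFR inhibitor and below it, in most samples far below, in the other groups. By the first probe (1779801_1), all 15 WT ras samples with an inhibitor had log ratios from 0.03 to 1.14, with a median of 0.24. The other 47 samples ran from −3.04 to −0.07, with a median of −1.81. Not a single sample of the other groups reached the lowest of those 15. Of 19386 probes with a value in all 62 samples, the first Ndrg1 probe was the only 1 with every WT ras inhibitor sample above every other sample, which is 0.00516 percent. That count is part of how the gene stands out and carries no test. It holds with the 2 disputed arrays of KO ras with AG1478 turned against their labels. Read by their labels they would stand at 1.31 and 2.57, above all 15, and neither the separation nor the count would hold.

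The step was narrow at its edge. The lowest sample inside it, WT ras with AG1478 replicate 2, was at 0.03, and the highest outside it, KO ras with erlotinib replicate 1, was at −0.07, followed by KO mock replicate 2 at −0.19. By the second probe (1787675_1) the 15 samples ran from −0.42 to 0.87, 12 of them above 0. There 1 of the other 47 samples, KO mock replicate 2 at −0.20, lay above the lowest of the 15. Ranked among all probes of its own array, the first probe's ratio stood at the 60.5th percentile in the median WT ras inhibitor sample and at the 8.0th percentile in the median of the rest.

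**Figure D1:**
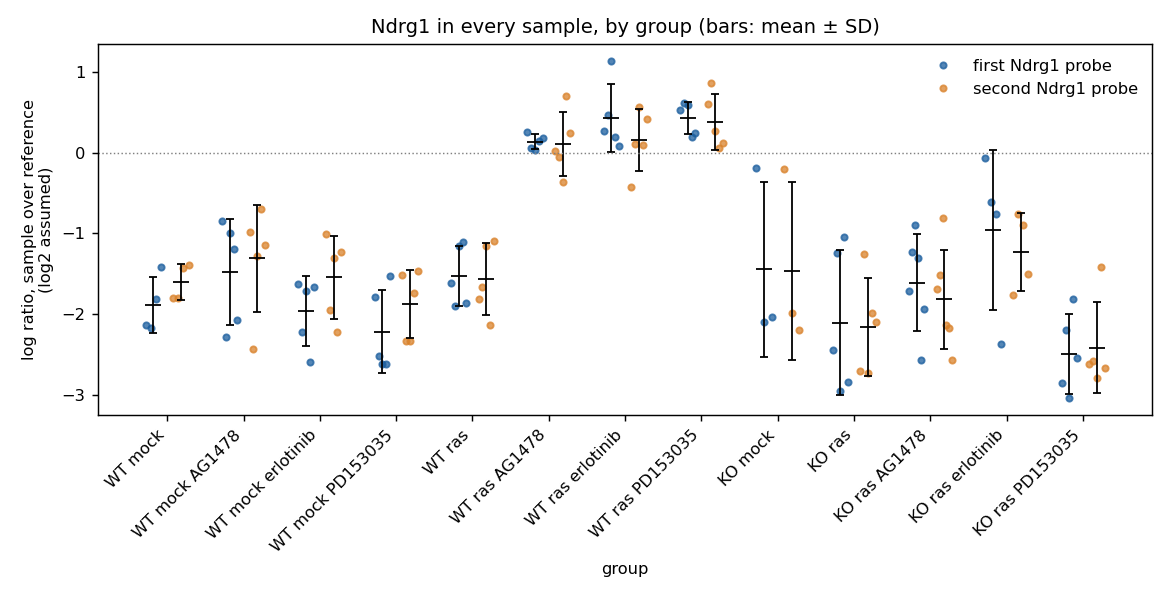
Log ratio (log2 assumed, sample over reference) of both Ndrg1 probes in each of the 62 samples, by group; points are samples and bars are the group mean ± SD. The 3 groups of WT ras cells with an inhibitor are the only groups with means above 0, from 0.11 to 0.43.

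In WT mock cells Ndrg1 was low with and without an inhibitor. The first probe read −2.17, −2.13, −1.81 and −1.42 in the 4 WT mock samples, a mean of −1.88 ± 0.35 (SD). With AG1478 the 5 values were −2.29, −2.08, −1.19, −1.0 and −0.85, with erlotinib −2.60, −2.22, −1.71, −1.66 and −1.63, and with PD153035 −2.62, −2.62, −2.52, −1.79 and −1.53. All 3 inhibitor groups overlapped untreated WT mock cells. The fitted difference from WT mock was 0.43 ± 0.38 (SE) with AG1478, −0.05 ± 0.38 with erlotinib and −0.31 ± 0.38 with PD153035, and each 95% interval held 0. These 4 groups share runs 1 and 2. Within run 2 the differences were −0.03, −0.38 and −0.71, and within run 1, which holds 1 or 2 samples of each, 1.30, 0.23 and 0.36. WT mock replicate 1 was counted in run 1, but it averages an array of run 1 (−1.64) and 1 of run 2 (−2.62). The run 1 values thus include an array of run 2, which the run 2 values leave out. Differences with each array in its own run were not computed, and the signs may change with its placing.

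In WT ras cells Ndrg1 was low without an inhibitor and near or above the reference with each of them. The 5 WT ras samples read −1.90, −1.86, −1.61, −1.16 and −1.11, a mean of −1.53 ± 0.38 (SD). With AG1478 the values were 0.03, 0.06, 0.14, 0.18 and 0.26, a mean of 0.14 ± 0.09. By the first probe, used for these values, this was the tightest of the 13 groups. By the second it was not, with samples from −0.36 to 0.71 and an SD of 0.40. With erlotinib the first probe read 0.08, 0.19, 0.27, 0.47 and 1.14, a mean of 0.43 ± 0.42. With PD153035 it read 0.20, 0.24, 0.53, 0.59 and 0.62, a mean of 0.43 ± 0.20. Each inhibitor group lay wholly above the untreated one, as 1.09, 2.01 and 1.38 percent of probes did with AG1478, erlotinib and PD153035.

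The fitted differences in WT ras cells were 1.66 ± 0.36 (SE) with AG1478, 1.96 ± 0.36 with erlotinib and 1.96 ± 0.36 with PD153035, or 3.16-, 3.88- and 3.89-fold if the scale is log2. The second probe gave 1.68 ± 0.34, 1.72 ± 0.34 and 1.95 ± 0.34. The estimates of both probes therefore lay within 1 standard error of each other for every inhibitor. No run holds both WT ras and an inhibitor group of WT ras cells, so no within-run value exists. With run as a random block the differences were 1.65 ± 0.47, 1.83 ± 0.47 and 1.91 ± 0.50. Leaving out each sample in turn kept them between 1.55 and 1.86, 1.80 and 2.15, and 1.85 and 2.16.

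**Figure D2:**
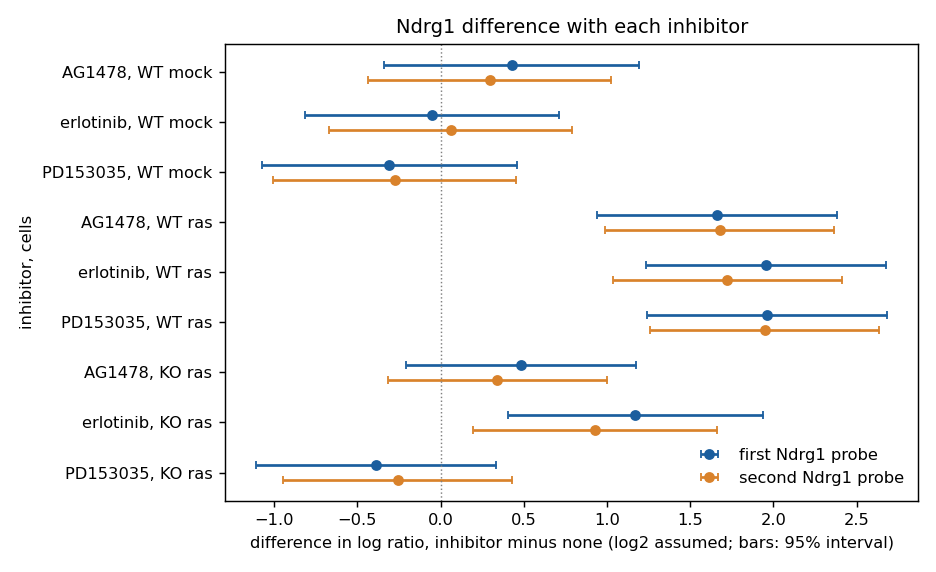
Difference in Ndrg1 log ratio (log2 assumed), inhibitor minus no inhibitor, for each inhibitor in WT mock, WT ras and KO ras cells; points are fitted differences and bars 95% intervals, for both probes. In WT ras cells all 6 estimates lie between 1.66 and 1.96, and in WT mock cells every interval holds 0.

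The inhibitor difference was larger in ras cells than in mock cells of the same genotype. The difference of differences by the first probe was 1.23 ± 0.52 (SE) for AG1478, 2.01 ± 0.53 for erlotinib and 2.27 ± 0.53 for PD153035. Put the other way, WT ras cells exceeded WT mock cells under the same inhibitor by 1.62 ± 0.36, 2.39 ± 0.36 and 2.65 ± 0.36. The second probe gave 1.42 ± 0.34, 1.70 ± 0.34 and 2.26 ± 0.34. In each of these 3 comparisons the groups did not overlap by either probe, which held for 1.76, 3.37 and 2.78 percent of probes in that direction. These groups share no run either.

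No difference in Ndrg1 between WT ras and WT mock cells was detected without an inhibitor. WT ras minus WT mock was 0.38 ± 0.38 (SE; 95% interval −0.38 to 1.15; limma, adjusted p = 0.936), in a comparison where 0.183 percent of probes were called at an adjusted p under 0.05. The second probe gave 0.04 ± 0.37 (limma, adjusted p = 0.998). In KO cells ras minus mock was −0.59 ± 0.42 (95% interval −1.42 to 0.25; limma, adjusted p = 0.961; 0.539 percent of probes called). That value rested on KO mock replicate 2: without it the difference was 0.04. The ras difference in KO minus that in WT cells was −0.97 ± 0.56 (limma, adjusted p = 0.858; 0.0108 percent called). The intervals are wide, and a difference of 1 lies inside the one for WT cells.

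In KO ras cells Ndrg1 was below the reference in every sample, with or without an inhibitor, as the arrays were turned here. KO ras alone read −2.96, −2.84, −2.44, −1.24 and −1.04, a mean of −2.11 ± 0.90 (SD). With AG1478 the 6 samples ran from −2.57 to −0.90, with a median of −1.52 and a mean of −1.61 ± 0.60. Without the 2 arrays of disputed direction the mean was −1.45 ± 0.47. Read by their labels, those 2 arrays would stand at 1.31 and 2.57 and the group mean at −0.32.

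Erlotinib and PD153035 went apart in the KO cells. With erlotinib the 4 KO ras samples read −2.37, −0.76, −0.61 and −0.07, a mean of −0.95 ± 0.99 (SD). With PD153035 the 5 samples read −3.04, −2.86, −2.55, −2.20 and −1.81, a mean of −2.49 ± 0.50, the lowest of all 13 groups. Both groups overlapped untreated KO ras cells. KO ras shares no run with KO ras given AG1478 or PD153035, so inhibitor and run cannot be told apart for these. The fitted differences from KO ras were 0.48 ± 0.34 (SE) with AG1478, 1.17 ± 0.38 with erlotinib and −0.39 ± 0.36 with PD153035, and by the second probe 0.34 ± 0.33, 0.93 ± 0.37 and −0.26 ± 0.34. For erlotinib, which shares runs 5 and 6 with 1 KO ras sample each, the difference was 0.56 within run 5 (3 samples against 1), 0.47 within run 6 (1 against 1) and 0.68 ± 0.48 with run as a fixed block.

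Part of the spread with erlotinib was between probes. In replicate 1 the first probe read −0.07 and the second −1.77, the widest gap between both probes in any sample (1.71). By the second probe the 4 samples were −1.77, −1.5, −0.89 and −0.76, with an SD of 0.49 in place of 0.99.

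Between EGFR knockout and wild type cells, Ndrg1 overlapped without an inhibitor and did not overlap in ras cells given one of the inhibitors. KO minus WT was 0.39 ± 0.44 (SE) in mock cells and −0.58 ± 0.36 in ras cells, and both intervals held 0. KO and WT cells without an inhibitor share no run, so genotype and run cannot be told apart there. The 3 KO mock samples read −2.10, −2.04 and −0.19, and without replicate 2 the mock difference turned to −0.24. With an inhibitor in ras cells, KO minus WT was −1.76 ± 0.34 with AG1478, −1.36 ± 0.38 with erlotinib and −2.93 ± 0.36 with PD153035. The second probe gave −1.93 ± 0.33, −1.39 ± 0.37 and −2.80 ± 0.34. KO and WT samples did not overlap under any of the 3 inhibitors, by either probe. With AG1478 this rests on the disputed arrays, which by label would lie above every WT sample (1.31 and 2.57, and 2.13 and 2.17 by the second probe). The shares of probes lower in KO without overlap were 1.5 percent with AG1478, 2.95 percent with erlotinib and 3.15 percent with PD153035.

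The genotype difference under an inhibitor, unlike that without one, could be measured within runs. Within run 8, KO ras cells with PD153035 read −3.04 to −1.81 and WT ras cells 0.20 to 0.62, 5 samples against 5, a difference of −2.93. Within the same run the 6 KO samples with AG1478 read −2.57 to −0.90 and the 2 WT samples 0.14 and 0.18, a difference of −1.77. With erlotinib the difference was −1.11 within run 5 (3 against 3) and −2.51 within run 6 (1 against 2). In runs 3 to 8 as a whole, the 15 WT samples, all with ras and an inhibitor, ran from 0.03 to 1.14 and the 23 KO samples from −3.04 to −0.07. With run as a fixed block the differences were −1.84 ± 0.45 (SE), −1.53 ± 0.37 and −2.93 ± 0.34. Read by the labels, the AG1478 difference shrank to −0.46.

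The inhibitor difference in KO minus that in WT ras cells was −1.18 ± 0.50 (SE) for AG1478, −0.79 ± 0.52 for erlotinib and −2.35 ± 0.51 for PD153035. The interval for erlotinib held 0 (−1.84 to 0.27), the others did not. The WT inhibitor groups share no run with WT ras, nor do KO ras cells given AG1478 or PD153035 with KO ras. A difference in response and a difference between runs therefore cannot be told apart in these contrasts. With signs by label the AG1478 value turned to 0.12 ± 0.70. With erlotinib, then, a difference in response between the genotypes was not resolved by this contrast, although the levels under erlotinib did not overlap.

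The order of the 13 group means shows 1 break. By both probes WT ras with PD153035, erlotinib and AG1478 came first, in that order, followed by KO ras with erlotinib. The step from AG1478 in WT ras to erlotinib in KO ras was 1.09 by the first probe and 1.34 by the second. It was the only step between neighbours at which the ranges did not overlap, and it was wider than the larger SD of the pair. Every other neighbouring pair overlapped, so the 3 leading groups have no order among themselves beyond their spread, nor have the 10 others from neighbour to neighbour. With the disputed arrays read by label, KO ras with AG1478 would span the break. The lowest mean by both probes was that of KO ras with PD153035.

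The 3 inhibitors were compared at their matched dose and time in 9 pairs, 3 in each cell state, as differences with 95% intervals and no test, since the gene was picked for its levels under them. AG1478 and PD153035 share a dimethoxyquinazoline core and differ in the halogen on the aniline ring, chlorine or bromine. Erlotinib carries methoxyethoxy chains and an ethynyl group in their place. In WT ras cells, where Ndrg1 was high, every interval held 0. AG1478 minus PD153035 was −0.30 (−1.02 to 0.42), AG1478 minus erlotinib −0.29 (−1.02 to 0.43) and erlotinib minus PD153035 −0.01 (−0.73 to 0.72). These intervals leave room for a difference of about 1 unit between AG1478 and either other compound.

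In WT mock cells AG1478 minus PD153035 was the widest, at 0.74 (95% interval 0.01 to 1.46), and by the second probe it was 0.57 (−0.12 to 1.26). AG1478 minus erlotinib was 0.48 (−0.24 to 1.20) and erlotinib minus PD153035 0.26 (−0.47 to 0.98), both with intervals that held 0.

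In KO ras cells erlotinib exceeded PD153035 by 1.56 ± 0.38 (SE; 95% interval 0.79 to 2.32), and by 1.19 ± 0.37 with the second probe. By the first probe, 3 of the 4 erlotinib samples lay above all 5 with PD153035. By the second probe the erlotinib samples at −1.77 and −1.5 lay below the highest PD153035 sample, at −1.42. Both groups share no run, so compound and run cannot be told apart here. The difference was 1.38 ± 0.51 with run as a random block and 1.29 without erlotinib replicate 1. AG1478 minus PD153035 was 0.87 (0.18 to 1.56) and AG1478 minus erlotinib −0.69 (−1.43 to 0.05). Both of these values include the arrays of disputed direction, and with signs by label they were 2.17 ± 0.48 and 0.63 ± 0.51.

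Both probes gave like values. Over 62 samples their correlation was 0.903 (Spearman 0.871), over the 13 group means 0.978, and over the deviations of samples from their group means 0.636. The probes share every array, its dyes and its scaling, so this is a description of agreement in 1 set of hybridisations. The median gap between them was 0.28.

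**Figure D3:**
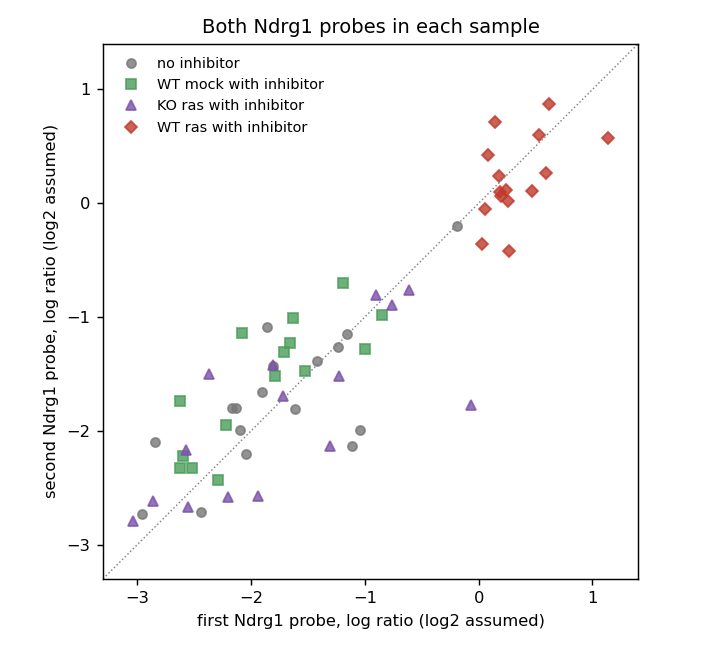
Log ratio (log2 assumed) of the first Ndrg1 probe (horizontal) against the second (vertical) in each of 62 samples, with the line of equality dotted; marks give the kind of sample. The 15 WT ras samples with an inhibitor lie at the upper right, and 1 KO ras sample with an inhibitor lies far below the line, at −0.07 and −1.77.

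Arrays with reversed dyes were present among high and low samples. The 3 WT ras inhibitor arrays with reversed dyes read 0.14, 0.19 and 0.20 by the first probe and 0.71, 0.10 and 0.06 by the second. The 9 other arrays labelled as reversed read −2.84 to −1.11 by the first probe, among them the disputed replicate 4 of KO ras with AG1478, at −1.31 as turned and 1.31 by label. After quantile normalization between arrays the 3 high groups kept means of 0.13, 0.44 and 0.45, and all others lay between −2.75 and −0.72.

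The other NDRG genes, each with 1 probe, share the protein fold. Ndrg2, a growth-restraining relative expressed in brain, muscle and many epithelia, read −1.51 ± 0.62 (SD) in WT ras cells, 0.40 ± 1.58 with AG1478, 0.13 ± 0.92 with erlotinib and −0.85 ± 0.32 with PD153035. With AG1478 its 5 samples spread from −1.99 to 2.25, and the lowest sample in both the AG1478 and the erlotinib group was the array with reversed dyes. AG1478 minus none was 1.91 ± 0.53 (SE; limma, adjusted p = 0.0443; 1.94 percent of probes called), a call lost in 7 of 10 fits that left out a sample and, at 2.14, with run as a random block (limma, adjusted p = 0.354). Erlotinib minus none was 1.64 ± 0.53 (limma, adjusted p = 0.07) and PD153035 minus none 0.65 ± 0.53 (limma, adjusted p = 0.67).

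Ndrg2 was also lower in KO than in WT ras cells with erlotinib, by −2.47 ± 0.57 (SE; limma, adjusted p = 0.0198; 0.963 percent of probes called; −2.55 with run as a random block, adjusted p = 0.00573 by limma). That call was lost in 4 of 9 fits that left out a sample. With AG1478 the difference was −1.70 ± 0.51 (limma, adjusted p = 0.0589) and with PD153035 −0.36 ± 0.53 (limma, adjusted p = 0.941). Under erlotinib WT ras exceeded WT mock cells by 2.39 ± 0.53 in Ndrg2 (limma, adjusted p = 0.00368; 5.24 percent called). Under AG1478 the excess was 2.16 ± 0.53 (limma, adjusted p = 0.01; 5.17 percent called). Under PD153035 the 0.98 ± 0.53 was not called (limma, adjusted p = 0.489). With run as a random block the AG1478 call was lost (limma, adjusted p = 0.106) and the erlotinib call kept (0.044 by limma). Ndrg3 reached 0.97 ± 0.29 with erlotinib in WT ras cells (limma, adjusted p = 0.0508; 3.4 percent called), and Ndrg4 had no call in any comparison of ras cells. Over 62 samples the correlation with the first Ndrg1 probe was 0.496 for Ndrg2, 0.292 for Ndrg3 and 0.171 for Ndrg4. Whether these genes differ from Ndrg1 in their response was not tested.

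**Figure D4:**
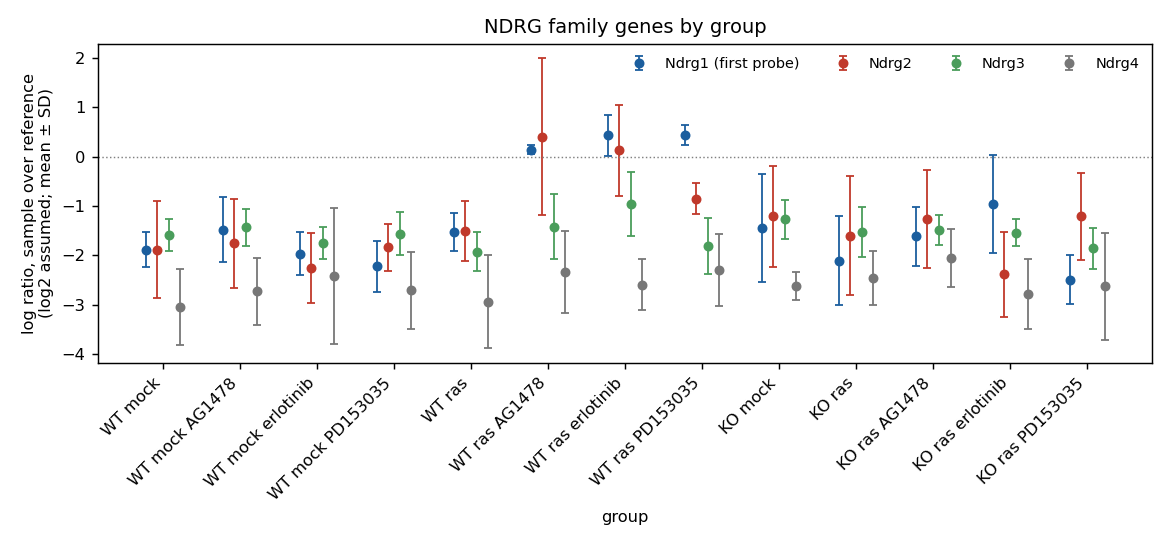
Group mean ± SD of the log ratio (log2 assumed) of Ndrg1 (first probe), Ndrg2, Ndrg3 and Ndrg4 in the 13 groups. Ndrg2 is above 0 in WT ras cells with AG1478 (0.40) and erlotinib (0.13) with wide spread, whereas Ndrg3 and Ndrg4 stay below 0 in every group.

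The genes most like Ndrg1 over the 62 samples were picked by Pearson correlation among 13792 named genes. They were Gpsm1, which encodes a G protein signalling modulator (0.80), Pla2g7, a secreted phospholipase (0.77), the lysosomal peptide transporter gene Abcb9 (0.74), Ppif, cyclophilin of the mitochondrial matrix (0.73), and the forkhead factor gene Foxq1 (0.73). Padi4, a peptidylarginine deiminase gene (0.72), Dtnb (0.71), Ecm1, an extracellular matrix gene of the upper epidermis (0.70), Anxa9, an annexin gene (0.70), and the adaptor gene Nck2 (0.70) followed. Their correlations over the 13 group means were 0.87 to 0.94. Within groups they were weaker, from 0.00 for Anxa9 to 0.48 for Padi4, so the likeness lay mainly between groups. All samples share the reference, the platform and the scaling.

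Group means show the shared pattern in WT ras cells. Gpsm1 read −0.05 in WT ras cells and 1.18, 1.74 and 1.02 with AG1478, erlotinib and PD153035. Ecm1 went from 1.11 to 2.75, 3.36 and 1.81, and Anxa9 from 1.25 to 2.52, 3.63 and 2.44. In KO ras cells Gpsm1 read −0.67 without an inhibitor and −0.59 to −0.24 with the 3 inhibitors, and Ecm1 1.05 and −0.34 to 0.85. Anxa9 read 0.215 there without an inhibitor and 1.03, 0.99 and 0.53 with AG1478, erlotinib and PD153035. Of the 10 genes, only Ecm1 and Anxa9 had their highest inhibitor mean in KO ras cells with AG1478. The others had it with erlotinib, as Ndrg1 had, such as Ppif (1.13, 2.03 and 0.93) and Pla2g7 (−0.68, −0.31 and −1.65). The genes were picked over all samples, these included, and the likeness in KO cells was not tested. At the other end were Zfp626 (−0.70), the amino acid transporter gene Slc38a2 (−0.69), Zfp36l1, which encodes an RNA-binding decay factor (−0.66), Prpsap1 (−0.64) and Relt, a receptor of the tumour necrosis factor family (−0.64). Slc38a2 read 2.66 in WT ras cells and 1.06, 1.57 and 1.26 with the inhibitors. The list depends on the measure: 4 of the 10 leading genes were also among the 10 by Spearman correlation, 5 by the second Ndrg1 probe and 8 without the disputed arrays. Of the 5 lowest, 3 stayed by Spearman correlation, 1 by the second probe and 4 without the disputed arrays.

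**Figure D5:**
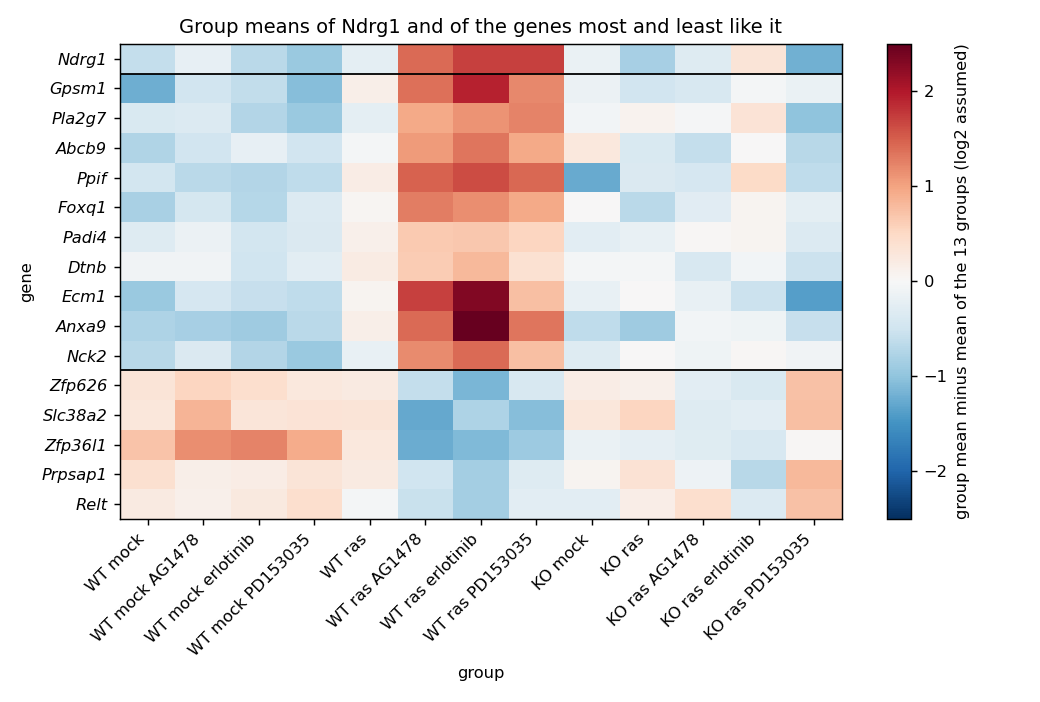
Group means of Ndrg1 (first probe, top line), the 10 genes most like it and the 5 least like it, as each gene's group mean minus its mean over the 13 groups (log2 assumed); red is above and blue below that mean. The 3 WT ras groups with an inhibitor are red in the upper lines and blue in the lower ones, as Gpsm1 (1.18, 1.74 and 1.02) and Slc38a2 (1.06, 1.57 and 1.26 against 2.66 without inhibitor) show.

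Among known regulators and partners of Ndrg1, Egr1 was the only gene called in WT ras cells with an inhibitor. Of 19 tested, 0 were higher and 1 lower with each inhibitor, beside 1.94, 3.4 and 0.66 percent of probes called with AG1478, erlotinib and PD153035. The list medians were −0.36, −0.31 and −0.17, against 0.11, 0.10 and 0.03 over all named genes. Hif1a, the oxygen-regulated transcription factor, differed by −0.36 ± 0.31 (SE), 0.04 ± 0.31 and −0.01 ± 0.31, and Myc by −1.12 ± 0.71, −1.62 ± 0.71 and −1.08 ± 0.71, none called.

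The 1 regulator called was Egr1, an immediate early transcription factor downstream of ERK. It fell by 2.61 with AG1478 (SE 0.29; limma, adjusted p = 7.13e-08), by 2.78 with erlotinib (SE 0.29; limma, adjusted p = 9.35e-09) and by 2.79 with PD153035 (SE 0.29; limma, adjusted p = 8.32e-09). Egr1 also followed the runs: it read 1.46 to 3.30 in all 24 samples of runs 1 and 2, WT mock cells with inhibitors included, and −1.23 to 1.48 in the 38 samples of runs 3 to 8. Ndrg1 had a median of −1.80 in the 24 samples of runs 1 and 2, −1.94 in the 23 KO samples of runs 3 to 8 and 0.24 in the 15 WT samples of those runs. The part of the run in the Egr1 values was not tested, since WT ras cells with and without an inhibitor share no run. A random block for run cannot part inhibitor from run there. With it the 3 adjusted p-values were 0.00043, 2.56e-05 and 0.000386 (limma).

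Sgk1, whose kinase phosphorylates NDRG1 protein, was higher in KO than in WT ras cells, by 1.64 ± 0.33 (SE; limma, adjusted p = 0.00515; 1.92 percent of probes called). It was higher by 1.25 ± 0.31 with AG1478 (limma, adjusted p = 0.0184; 2.22 percent called) and by 1.27 ± 0.33 with PD153035 (limma, adjusted p = 0.0282; 1.38 percent called), and the 0.92 ± 0.35 with erlotinib was not called (limma, adjusted p = 0.169). With run as a random block the call without inhibitor was lost at a difference of 1.64 (limma, adjusted p = 0.254), as was that with AG1478 at 1.18 (0.0861 by limma), and that with PD153035 was kept at 1.27 (0.0151 by limma). KO ras and WT ras cells without an inhibitor share no run, so genotype and run cannot be told apart there. Leaving out a sample ended the AG1478 call in 3 of 11 fits and the PD153035 call in 6 of 10. Sgk1 was not called with any inhibitor within WT ras cells (−0.06 ± 0.33, −0.15 ± 0.33 and 0.20 ± 0.33). Protein and phosphorylation were not measured here.

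Other hypoxia-inducible genes were called in both directions in WT ras cells with an inhibitor, beside 1.94, 3.4 and 0.66 percent of all probes with AG1478, erlotinib and PD153035. Of 32 tested, 0 were higher and 1 lower with AG1478 (Hk2, a hexokinase gene, −1.10 ± 0.31 SE; limma, adjusted p = 0.0471). With erlotinib 1 was higher, Car9, a carbonic anhydrase gene (1.10 ± 0.32; limma, adjusted p = 0.0395), and 2 were lower, Vegfa (−1.32 ± 0.40; limma, adjusted p = 0.0497) and Pdk1 (−1.35 ± 0.40; limma, adjusted p = 0.0434). With PD153035 none was called. These calls lay near the threshold and were not refitted with run as a block. Inhibitor and run cannot be told apart in these comparisons. The list medians were 0.04, −0.15 and −0.15. In KO ras cells with PD153035, where Ndrg1 was lowest, 2 were higher (Pfkp and Pfkfb4, both of glycolytic control) and 3 lower (Tpi1, Slc2a1 and Ldha), in a comparison with 4.83 percent of probes called.

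Among 17 p53 target genes 0 were higher and 1 was lower with each inhibitor in WT ras cells, beside the same 1.94, 3.4 and 0.66 percent of all probes. It was Btg2, an antiproliferative gene, at −1.46 ± 0.36 (SE), −1.70 ± 0.36 and −2.22 ± 0.36 (limma, adjusted p = 0.0213, 0.0042 and 0.000613). With run as a random block the differences were −1.26, −1.52 and −2.11 and none of the 3 was called (limma, adjusted p = 0.371, 0.143 and 0.153), the AG1478 call was lost in 4 of 10 fits that left out a sample, and Btg2 was above 0 in all 24 samples of runs 1 and 2. Of 22 ERK target and feedback genes, beside the same shares of all probes, Egr1 was lower with all 3 inhibitors and Fos also with PD153035 (−2.56 ± 0.62; limma, adjusted p = 0.0321), and the list medians were −0.30, −0.52 and −0.37.

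Of 19 suprabasal differentiation genes 2 were higher with AG1478 in WT ras cells, the cornified envelope genes Sprr1a (2.02 ± 0.58 SE; limma, adjusted p = 0.0486) and Sprr2a1 (1.49 ± 0.42; limma, adjusted p = 0.0451), beside 1.94 percent of all probes called. None was called with erlotinib or PD153035, and the list medians were 0.72, −0.18 and −0.27. This list's median was above that of all genes with AG1478 only. Neither the difference between inhibitors in the list nor a tie between the list and Ndrg1 was tested.

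Markers of other cells that could hold Ndrg1 transcript were given beside it. In bulk samples fewer cells of a type and less RNA per cell cannot be told apart. In WT ras cells 1.94, 3.4 and 0.66 percent of all probes were called with AG1478, erlotinib and PD153035. None of 6 Schwann cell markers was called there. Their group means were nonetheless highest in the 3 groups where Ndrg1 was high, at −1.32 with AG1478, −0.92 with erlotinib and −1.13 with PD153035, and −1.88 to −1.40 in the 10 others. By sample their mean ran from −2.52 to −0.94 in WT ras cells, −1.73 to −0.77 with AG1478, −1.51 to −0.16 with erlotinib and −1.40 to −0.71 with PD153035. Of 13 keratinocyte markers none was called with any inhibitor in WT ras cells, and their mean ran from 2.63 to 3.83 without inhibitor and from 2.05 to 4.72 with an inhibitor. Of 12 fibroblast and 8 endothelial markers none was called there. Cd68 of 9 leukocyte markers was higher with AG1478 and Mitf of 8 melanocyte markers with erlotinib. In lists this short, such counts say little about the cell types. The part of such cells in the Ndrg1 values was not tested.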

How the data were processed

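The deposited values are log ratios, taken as log2 from their spread because the authors' scale is stated in no source used here. Per the labels' protocols, Trizol RNA and reference RNA were labelled with Cy3 and Cy5 on 2-colour arrays. Background correction, scaling and filters are not given either. Arrays held 24860 to 28047 values.

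Arrays were set to read sample over reference from the sign of their correlation with the median of the forward arrays (sizes 0.559 to 0.901). Dyes are reversed on 12 arrays by label, and 2 arrays went against their label. The 2 WT mock arrays labelled repeat 1, 1 of run 1 and 1 of run 2, were averaged and counted in run 1. Differences came from limma 3.58.1 (R 4.3.3) on all 13 groups with a dye term and moderated variances, and p-values were adjusted by Benjamini-Hochberg over probes with values in at least 60 percent of each group, called at 0.05. Scripts were tested on simulated data. There 7 to 19 percent of added differences of 1 were called, and 69 to 83 percent of those of 2. A gene not called may therefore still differ by 1. False calls made up 2.273 to 9.524 percent of all calls. The simulated samples were independent, without run, dye or array effects, whereas the real samples had a correlation of 0.26 within runs. This share is therefore not the error rate of the real calls. Python 3.11.15 drew the figures. Runs are experiment numbers parted where gaps exceed 100. The design names biological replicates and nothing says more, so p-values reflect the sample-to-sample spread alone, and that spread may be technical.

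The members and lists were chosen with earlier results of these data known. Other genes use the probe with most values. Likeness took the 10 highest and 5 lowest Pearson correlations among genes with at least 55 values, without clone codes. From lists, called members are named, at most 4 per comparison by size. Hif1a, Myc, uncalled values of Sgk1 and the markers Cd68 and Mitf were named after their values were seen. Tests of ras in KO cells, of ras under each inhibitor and between inhibitors were planned. Those values are given untested because the gene was picked for its levels in those groups. Alternatives covered dye terms, direction, scaling, filters, weights, runs, replicate numbers, probes and each sample left out.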

Additional observations from a re-analysis of the deposited data

Results flagged for a closer look

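Among 60 groups of 4 to 6 samples of the NDRG probes, 4 held a sample far from the others, and chance alone gives about 1 in 20. The second Ndrg1 probe in KO ras with PD153035 was highest in replicate 4 at −1.42, with the gap to its neighbour 0.85 of the group's range. That array carries reversed dyes and was also highest by the first probe (−1.81). Ndrg2 in WT ras was highest in replicate 3 at −0.42 (0.839 of the range). Ndrg3 in WT ras was lowest in replicate 4, an array with reversed dyes, at −2.62 (0.718 of the range). Ndrg3 in KO ras with AG1478 was highest in replicate 4, of disputed direction, at −0.91 (0.637 of the range).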

How the results depend on the processing

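Under other settings, 553 values of Ndrg1 and its likeness lists kept their direction and side of the threshold or moved by less than the spread between samples, and 15 did not. With 1 sample left out 395 of 405 did. With signs taken from the labels, KO ras with AG1478 had a mean of −0.32, KO minus WT with AG1478 was −0.46, AG1478 minus none in KO ras 1.79, and the AG1478 difference in KO minus WT 0.12. In KO ras cells, AG1478 minus erlotinib turned to 0.63, AG1478 minus PD153035 was 2.17 and erlotinib minus PD153035 1.54. Erlotinib minus PD153035 in KO ras was 1.56 when only both groups were fitted and 1.38 with run as a random block, each with a wider error, and ran from 1.29 to 1.96 with 1 sample left out. With array weights AG1478 minus PD153035 in KO ras was 0.99. In WT ras cells erlotinib minus PD153035, near 0, turned to 0.024 with median centring and 0.028 with array weights, and ran from −0.17 to 0.10 with 1 sample left out. By the other probe, ras minus mock under erlotinib was 1.70. With 1 sample left out, KO ras minus mock ran from −0.92 to 0.04 and KO minus WT in mock from −0.24 to 0.72. The causes were not tested. Replicate numbers did not pair samples (median correlation of deviations 0.02 for equal and −0.01 for different numbers), and a replicate block changed no direction (erlotinib minus PD153035 in KO ras 1.56). Run as a fixed block could not be fitted where groups share no run. The alternatives for Ndrg2, Egr1, Btg2 and Sgk1 were chosen after seeing the data. Other called list genes, Fos, Sprr1a and Sprr2a1 among them, were not refitted in this way. The number of arrays limits the precision, and spot signals over background were not used here.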
